A study of Mus musculus with 25 samples.

Results

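Axon guidance ligands and receptors were taken as all protein-coding genes of the semaphorin (Sema3 to Sema7), plexin, neuropilin, netrin and netrin-G, Slit, Robo, ephrin and Eph receptor families. The naming pattern of these families gave 66 genes, and all 66 were found among the 56956 genes of the count table. A mean of at least 0.5 CPM (counts scaled to library size) over the libraries was reached by 62 of them: 20 semaphorins, 9 plexins, 2 neuropilins, 3 Slits, 3 Robos, 6 netrins, 7 ephrins and 12 Eph receptors. The limit fell between Efna3 at a mean of 0.216 CPM and Robo2 at 0.611 CPM. Below it also lay Epha8 (0.0064 CPM), Epha10 (0.0183 CPM) and Robo3 (0.051 CPM), and just above it Slit1 (0.682 CPM) and Sema3a (1.37 CPM). Robo2, Slit1 and Sema3a did not pass the filter on low counts, so that 59 genes were tested between groups.

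Semaphorins signal through plexins. The secreted class 3 semaphorins mostly need neuropilins as co-receptors, while classes 4, 5 and 6 are transmembrane proteins and Sema7a is held by a lipid anchor. Slits are secreted ligands of Robos, netrins bind Dcc, neogenin and Unc5 receptors, and ephrins are membrane-bound ligands of the Eph receptor tyrosine kinases. These systems steer growing axons, and in peripheral nerve they are also used by Schwann cells, fibroblasts, perineurial and endothelial cells. A sciatic nerve sample contains axons without the cell bodies of their neurons, so most of its polyadenylated RNA comes from the non-neuronal cells.

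RNA of the whole sciatic nerve had been sequenced in 25 libraries, with 5 libraries in each of 5 groups, 1 from each age (weeks 3, 5, 7, 9 and 12). The C3 group (B6.Cg-Tg(PMP22)C3Fbas/J) carries 5 copies of human PMP22 on the C57BL/6J background and was set against C57BL/6J mice (WT-C3), and the C22 group (Tg(PMP22)C22Clh) carries 10 copies on FVB/NRJ and was set against FVB/NRJ mice (WT-C22). C3 arose from C22 by partial loss of copies, both are heterozygous models of Charcot-Marie-Tooth disease type 1A, and strain and copy number change together between them. The group C3-cJunKO (C3-PMP22 c-JunP0Cre) is C3 with a Schwann cell knockout of the transcription factor c-Jun, with a Cre named after the P0 myelin gene, and the labels do not give its background strain. No group was treated, all libraries carry the same batch label, and each is a pool of 4 to 5 males and females. Libraries of different age stood in as replicates within a group (n = 5), so each SD and standard error (SE) includes change with age.

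Depth on genes ran from 2140142 (C3 at 9 weeks) to 49072746 counts, with a median of 24663235. Jun was at 110 ± 11.6 CPM (SD, n = 5) in C3 and at 29.2 ± 2.45 CPM in C3-cJunKO, a log2 fold change of -1.90 (adjusted p = 7.29e-07). Human PMP22 was at 10100 to 13938 CPM in C3 (mean 12622) and at 9756 to 13905 CPM in C22 (mean 11843). Its RNA level was thus not higher in C22, the model with more copies. It was at 7867 CPM or more in each library of C3-cJunKO, and at most at 6.41 CPM in the control libraries. The mouse gene Pmp22 was lower in the transgenic nerves. Its mean was 23245 CPM in WT-C3, 10424 CPM in C3 and 9334 CPM in C3-cJunKO, and 22937 CPM in WT-C22 and 4312 CPM in C22. The human RNA therefore does not stand for all PMP22 RNA of these nerves. The myelin genes of the Schwann cell list were expressed in all groups. Their summed level was 59117 to 101682 CPM in WT-C3, 39853 to 59014 in C3 and 37191 to 68098 in C3-cJunKO. It was 47211 to 96001 CPM in WT-C22 and 26078 to 39328 in C22. Of the 10 genes, 2 were higher and 2 lower in C3, and 2 were higher and 4 lower in C22. The sum therefore does not stand for each gene.

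In control nerves the members spanned more than 3 orders of magnitude when CPM was divided by transcript length. Sema3b, a secreted semaphorin, was the highest member of all at a mean of 508 CPM per kb over the 10 control libraries (range 395 to 695), followed by the transmembrane Sema6c at 92.3 (range 74.7 to 110) and Sema4c at 61.7 (range 35.2 to 95.9). The ranges of Sema3b and Sema6c did not overlap, and those of Sema6c and Sema4c did. The place of Sema4c rested on WT-C3, with a mean of 82.6 CPM per kb there and 40.8 in WT-C22. In WT-C22, Sema3g (56.1) and Sema5a (49.9) were higher than Sema4c. The most abundant plexin per length was Plxnb3 at 27.8 CPM per kb, close to Plxnb1 (25.7), Plxnd1 (23.6) and Plxnb2 (21.3), and the ranges of these 4 overlapped. Nrp2 was the higher neuropilin at 27.1 CPM per kb (Nrp1 13.4), and Slit2 the highest Slit at 23.8. Their partners on the Slit side were low, since Robo4, which is known as the endothelial Robo, was at 7.00 CPM per kb, Robo1 at 0.330 and Robo2 at 0.0672. Ntn1 led the netrins (36.2 CPM per kb), Efnb1 the ephrins (31.4) and Ephb6, an Eph receptor without kinase activity, the Eph receptors (36.0). Sema4f was the lowest semaphorin at 0.168 CPM per kb.

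**Figure D1:**
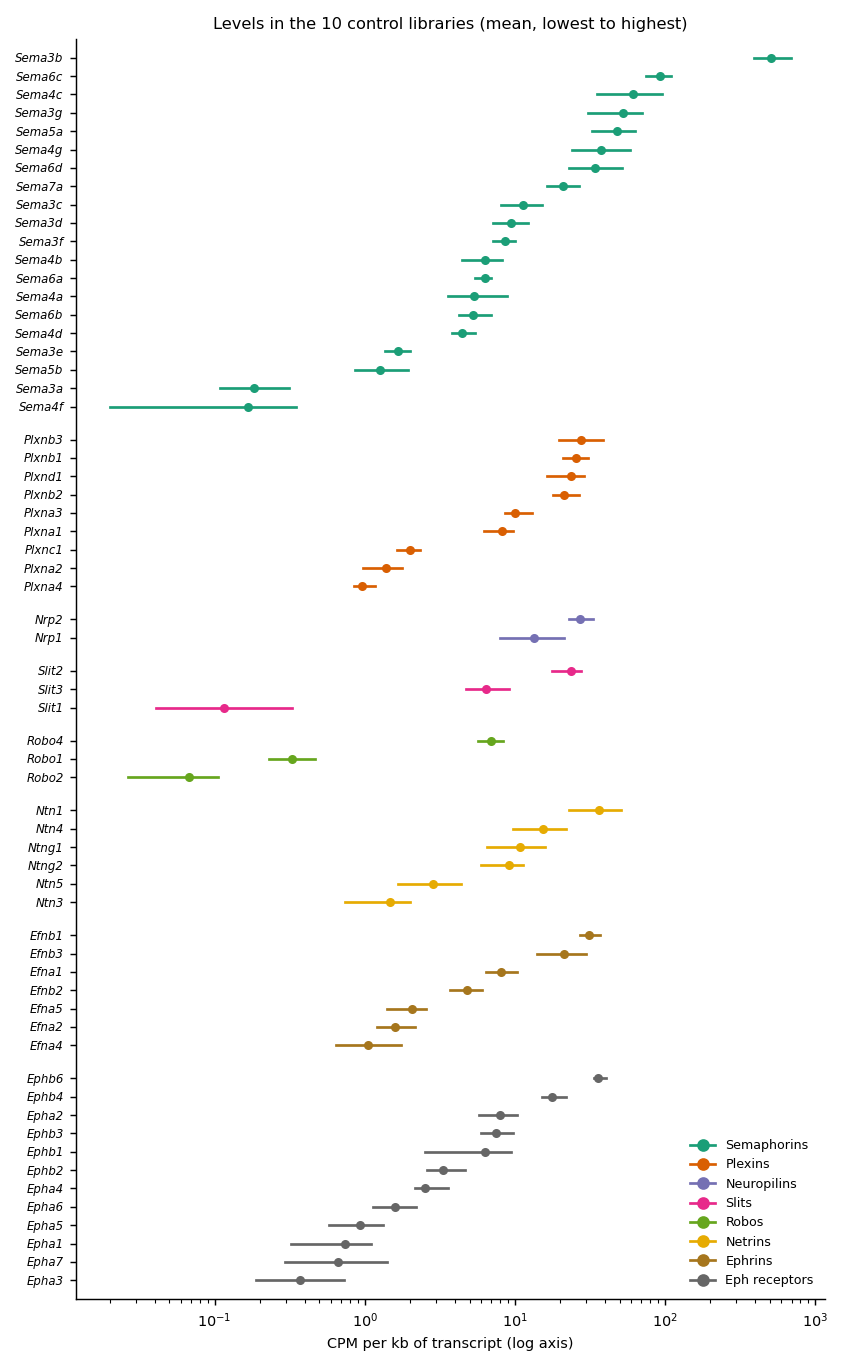
Level of each of the 62 genes in the 10 control libraries (WT-C3 and WT-C22), in CPM per kb of transcript on a log axis, grouped by family. Points are means and lines run from the lowest to the highest library. Sema3b stands above all others at 508 CPM per kb, and Robo2 is lowest at 0.0672.

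The question in each model was how the nerve with copies of human PMP22 differs from its own control. In C3, 19 of the 59 tested genes changed (14 higher, 5 lower), and in C22, 36 changed (15 higher, 21 lower). Across all 13993 genes tested, 12.5% were higher and 11.4% lower in C3, and 21.9% were higher and 20.5% lower in C22. The median log2 fold change of the 59 genes was 0.17 in C3 and -0.20 in C22, against 0.001 and 0.005 over all genes. When counts were scaled by library size only, the split in C22 turned to 24 higher and 14 lower, with the median of all genes shifted by 0.173 and 75.8% of all called genes higher in place of 51.7%. In C3 that scaling gave 18 higher and 5 lower, with 71.4% of all called genes higher in place of 52.1%.

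The C3 and C22 calls shared 18 genes, which is 94.7% of the C3 calls and 50% of the C22 calls, and each of the 18 moved in the same direction in both. Higher in both were the semaphorins Sema4b, Sema4c, Sema4f and Sema6a, the plexins Plxna1, Plxna4, Plxnb3 and Plxnd1, the netrins Ntn5 and Ntng2, and the Eph receptors Ephb1, Ephb3 and Ephb6. Lower in both were Sema3c, Sema3d, Sema5a, Slit2 and Efnb3. Epha5 was called in C3 alone, and of the 18 genes called in C22 alone 16 were lower. Of all genes, 23.9% were called in C3 and 42.4% in C22. The overlap and the direction of the calls in C22 alone were not counted over all genes. Whether either is particular to the guidance genes was not tested. The change itself differed between the models for 9 genes (2 with a higher and 7 with a lower log2 fold change in C22), where 4.75% and 7.31% of all genes were called. With library size only, this became 4 higher and 5 lower, with 62.8% of all called genes higher in place of 39.4%.

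**Figure D2:**
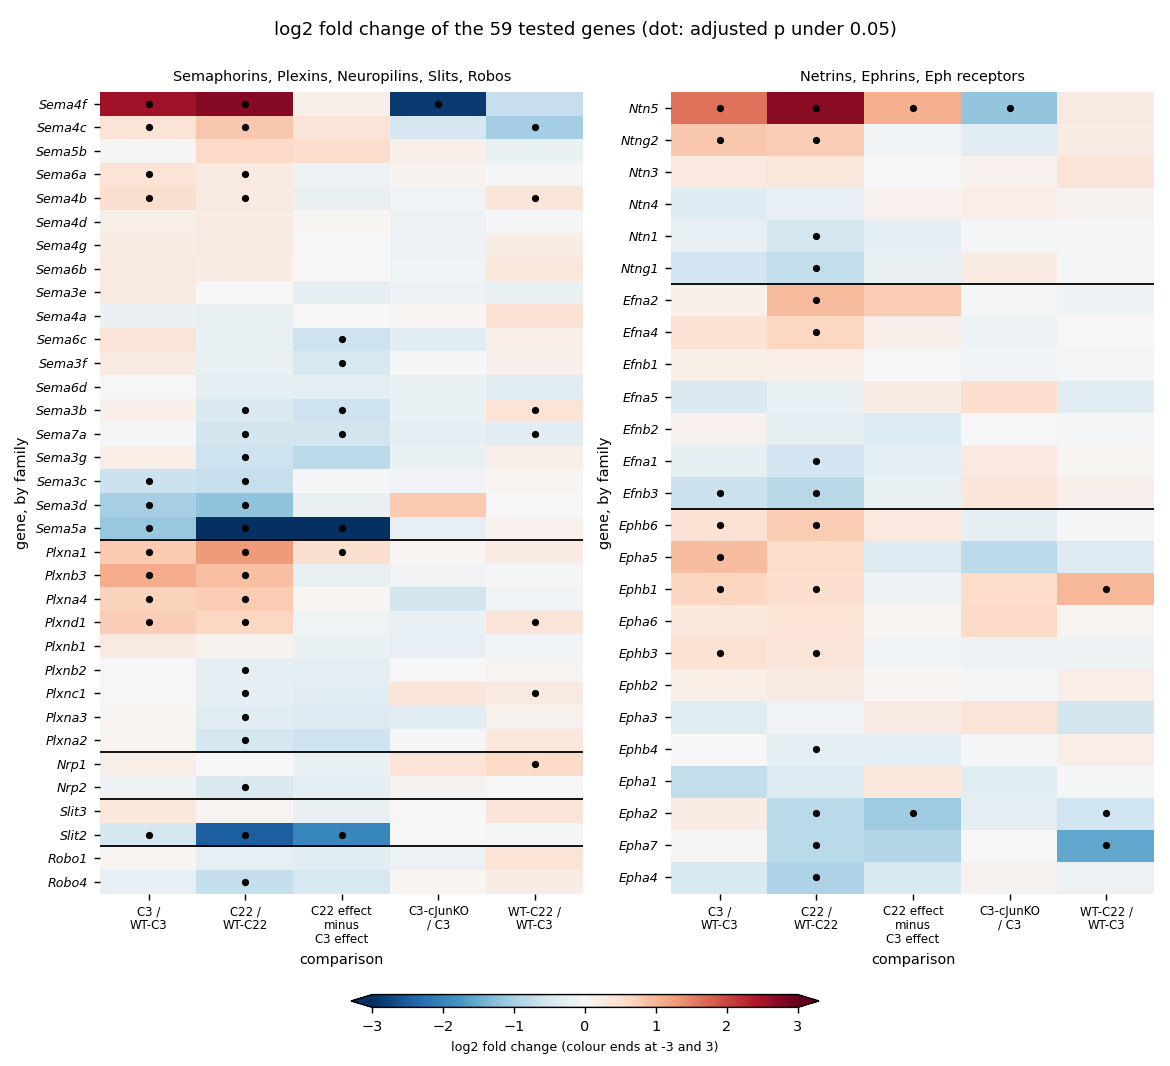
Colour gives the log2 fold change of the 59 tested genes (rows, by family) in 5 comparisons (columns), with colours ending at -3 and 3, and a black dot marks an adjusted p under 0.05. The C22 column has 15 dots on higher and 21 on lower genes, and the C3-cJunKO column has dots only at Sema4f and Ntn5.

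Among the semaphorins, Sema5a had the strongest fall. It is a transmembrane ligand with thrombospondin repeats. In the order of ages, Sema5a was at 530, 531, 465, 525 and 416 CPM in WT-C3 and at 278, 261, 248, 163 and 171 CPM in C3. It was at 689, 581, 513, 565 and 358 CPM in WT-C22 and at 26.0, 22.2, 32.0, 31.8 and 34.9 CPM in C22. Every library of either model lay below every library of its control, and the C22 libraries lay below those of C3. Its log2 fold change was -1.14 ± 0.15 (SE) in C3 (adjusted p = 0.000526) and -4.21 ± 0.19 in C22 (adjusted p = 4.4e-08), and the difference of -3.09 ± 0.25 between them passed the test (adjusted p = 7.57e-08).

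The class 3 semaphorins Sema3c and Sema3d also fell in both models. Sema3d was at 47.4, 48.6, 65.2, 79.9 and 66.1 CPM in WT-C3 and at 32.9, 23.7, 34.2, 27.5 and 35.0 CPM in C3, and at 47.2, 47.0, 71.0, 75.3 and 67.9 CPM in WT-C22 and at 25.7, 30.6, 25.7, 26.9 and 26.4 CPM in C22. The groups did not overlap in either model, and the controls were higher from 7 weeks on than at the younger ages while the transgenic nerves were not. Sema3d had a log2 fold change of -0.99 ± 0.16 in C3 (adjusted p = 0.0015) and -1.20 ± 0.14 in C22 (adjusted p = 4.76e-05), and that of Sema3c was -0.64 ± 0.20 (adjusted p = 0.0337) and -0.69 ± 0.13 (adjusted p = 0.00112). The call of Sema3c in C3 was lost without the C3 library of 5, 7 or 12 weeks or the WT-C3 library of 3 or 7 weeks (adjusted p up to 0.0821).

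Sema3b, Sema3g and Sema7a fell in C22 without a call in C3. Sema3b, the most abundant member, was at 2146 ± 241 CPM (SD) in WT-C22 and at 1583 ± 162 CPM in C22 (log2 -0.44 ± 0.11, adjusted p = 0.00631), Sema3g at 255 ± 45.8 and 168 ± 19.1 CPM (log2 -0.61 ± 0.13, adjusted p = 0.00297) and Sema7a at 60.8 ± 5.35 and 41.8 ± 4.34 CPM (log2 -0.55 ± 0.09, adjusted p = 0.000408). In C3 their log2 fold changes were 0.15 ± 0.11, 0.20 ± 0.22 and -0.03 ± 0.09. The difference between the models passed the test for Sema3b (-0.61 ± 0.15, adjusted p = 0.00906) and Sema7a (-0.54 ± 0.12, adjusted p = 0.00613) and not for Sema3g (-0.82 ± 0.27, adjusted p = 0.0545). Sema3f and Sema6c passed the test of the difference only (-0.48 ± 0.13, adjusted p = 0.0207, and -0.63 ± 0.20, adjusted p = 0.045), without a call in either model. Sema6c lost this call without any 1 of 15 of the 20 libraries (adjusted p up to 0.101), and Sema3f without the C3 library of 5 weeks or the WT-C22 library of 3 weeks (adjusted p up to 0.0518). Sema6c also lost it with median-ratio size factors (0.054), library size only (0.111), no filter on low counts (0.07) and filterByExpr (0.0601), and Sema3f with library size only (0.0745) and no filter (0.0855).

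Of the semaphorins that rose, Sema4f had the largest change from the lowest control level. This transmembrane semaphorin was at 0.547, 1.03, 1.83, 0.715 and 1.53 CPM in WT-C3 and at 5.89, 7.05, 5.84, 5.6 and 7.95 CPM in C3. In WT-C22 it was at 0.693, 0.106, 0.782, 0.742 and 0.851 CPM and in C22 at 6.74, 3.69, 4.66, 3.60 and 4.45 CPM. The transgenic and control libraries were separate in both models, although the values rest on few reads (7 to 25 counts per library in WT-C3 and 1 to 34 in WT-C22). Sema4f rose by a log2 of 2.55 ± 0.28 in C3 (adjusted p = 0.000144) and 2.73 ± 0.30 in C22 (adjusted p = 3.05e-05). Only the C3 and C22 libraries of Sema4f exceeded the limit of the filter on low counts, so it entered the tests through the groups where it was high. Without that filter its log2 fold change was 2.57 in C3 (adjusted p = 6.78e-06) and 2.74 in C22 (adjusted p = 4.06e-06).

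Sema4c, a ligand of Plxnb2, differed between the control strains as well as between control and model. It was at 337, 413, 347, 300 and 382 CPM in WT-C3 and at 405, 466, 445, 643 and 435 CPM in C3, and at 209, 181, 174, 163 and 152 CPM in WT-C22 and at 334, 299, 308, 270 and 344 CPM in C22. The C3 library of 9 weeks, which has the lowest depth, was the highest, and C3 and WT-C3 overlapped while C22 and WT-C22 did not. This gave a log2 fold change of 0.42 ± 0.13 in C3 (adjusted p = 0.0321) and 0.82 ± 0.10 in C22 (adjusted p = 5.72e-05). In C3 the call was lost without the C3 library of 5 or 7 weeks or the WT-C3 library of 3, 7 or 9 weeks (adjusted p up to 0.0764). Sema4b rose by a log2 of 0.48 ± 0.10 in C3 (adjusted p = 0.00526) and 0.26 ± 0.08 in C22 (adjusted p = 0.0256). Its call in C22 was lost without the C22 library of 3 weeks (adjusted p = 0.0534) and without the filter on low counts (adjusted p = 0.0546). Sema6a rose by 0.40 ± 0.09 (adjusted p = 0.00893) and 0.27 ± 0.07 (adjusted p = 0.00937). The other 7 tested semaphorins had no call in either model or in the difference, with log2 fold changes between -0.29 and 0.58 in C22.

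The plexins, the receptors of the semaphorins, gave 4 calls in C3, all higher, and 4 higher and 4 lower in C22. Plxna1 was at 114, 115, 109, 86.1 and 88.5 CPM in WT-C3 and at 176, 186, 169, 199 and 156 CPM in C3, and at 135, 116, 126, 113 and 121 CPM in WT-C22 and at 290, 315, 310, 267 and 306 CPM in C22. It was higher at every age in both models without overlap of the groups. Plxna1 rose by a log2 of 0.78 ± 0.10 in C3 (adjusted p = 0.000368) and 1.28 ± 0.07 in C22 (adjusted p = 1.9e-07), which differed by 0.47 ± 0.12 (adjusted p = 0.0141).

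Plxnb3 was at 214, 207, 153, 148 and 148 CPM in WT-C3 and at 485, 448, 356, 348 and 258 CPM in C3. In WT-C22 it was at 235, 166, 163, 147 and 121 CPM and in C22 at 362, 312, 333, 258 and 305 CPM. In C3 it was highest at 3 weeks and lowest at 12 weeks, as in WT-C22, and the groups of either model did not overlap. Plxnb3 rose by a log2 of 1.12 ± 0.17 in C3 (adjusted p = 0.00109) and 0.91 ± 0.16 in C22 (adjusted p = 0.00076).

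Plxna4 was at 12.3, 11.1, 15.2, 14.1 and 11.4 CPM in WT-C3 and at 18.8, 19.5, 21.8, 19.6 and 21.7 CPM in C3, and at 11.3, 12.5, 10.9, 12.3 and 12.9 CPM in WT-C22 and at 21.4, 19.8, 20.7, 17.8 and 21.5 CPM in C22. The levels of both models lay together, above both controls. The log2 fold change of Plxna4 was 0.67 ± 0.11 (adjusted p = 0.00159) and 0.75 ± 0.08 (adjusted p = 3.4e-05), and that of Plxnd1, a receptor of Sema3e, was 0.73 ± 0.10 (adjusted p = 0.000638) and 0.61 ± 0.07 (adjusted p = 3.02e-05). Lower in C22 were Plxna2 (log2 -0.52 ± 0.13, adjusted p = 0.00658), Plxna3 (-0.33 ± 0.11, adjusted p = 0.0338), Plxnb2 (-0.28 ± 0.10, adjusted p = 0.0433) and Plxnc1, the receptor of Sema7a (-0.29 ± 0.09, adjusted p = 0.0201). With library size only, none of these 4 calls was kept (adjusted p 0.0549, 0.224, 0.437 and 0.32). Without the filter on low counts Plxna3, Plxnb2 and Plxnc1 also lost theirs (adjusted p 0.0505, 0.101 and 0.0694). Leaving out 1 library removed the call of Plxnb2 in 7 of 10 cases (adjusted p up to 0.0942), of Plxna3 in 5 of 10 (up to 0.0684) and of Plxnc1 without the WT-C22 library of 7 or 9 weeks (up to 0.0615). Plxnb1, the receptor of Sema4d, had no call in C3 (log2 0.28 ± 0.11) or in C22 (0.11 ± 0.10). Of the co-receptors, Nrp2 fell in C22 from 184 ± 23.8 to 137 ± 9.21 CPM (log2 -0.43 ± 0.09, adjusted p = 0.00256), and Nrp1 was at 81.8 ± 22.2 CPM in WT-C22 and at 82.4 CPM (range 67.2 to 96.1) in C22.

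Slit2, the most abundant Slit, was the second gene with a far larger fall in C22 than in C3. It was at 245, 265, 202, 273 and 225 CPM in WT-C3 and at 168, 178, 180, 154 and 156 CPM in C3. In WT-C22 it was at 258, 246, 221, 258 and 177 CPM and in C22 at 35.7, 39.0, 39.7, 40.3 and 54.2 CPM. The groups did not overlap, and the C22 library of 12 weeks lay apart from the other C22 libraries. The log2 fold change was -0.53 ± 0.09 in C3 (adjusted p = 0.00224) and -2.48 ± 0.14 in C22 (adjusted p = 1.66e-07), a 5.58-fold lower level in C22, and the difference was -1.96 ± 0.17 (adjusted p = 1.57e-07). Slit3 had a log2 fold change of 0.31 ± 0.11 in C3 and 0.09 ± 0.22 in C22, without a call. Robo4 fell in C22 (log2 -0.71 ± 0.13, adjusted p = 0.000895), from 37.2 ± 2.95 to 22.8 ± 4.60 CPM.

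Robo4 is a marker of endothelium, and 7 of the 9 endothelial markers were also lower in C22 (2 of 9 in C3). Their summed level was 632 to 858 CPM in WT-C22 and 424 to 651 CPM in C22, and each of the 9 was detected in every group. The perineurial markers fell as well (6 of 7 in each model), with a summed level of 1385 to 2143 CPM in WT-C22 and 945 to 1199 CPM in C22, and of 1364 to 2110 CPM in WT-C3 and 1261 to 1768 CPM in C3. Of the pericyte and smooth muscle markers 5 of 7 were lower in C22 and 2 of 7 in C3, with a summed level of 789 to 1203 CPM in WT-C22, 483 to 997 CPM in C22, 770 to 1131 CPM in WT-C3 and 537 to 1054 CPM in C3. Of the repair and immature Schwann cell markers 6 of 7 tested rose in C3, and 4 rose and 2 fell in C22. Their summed level was 190 to 224 CPM in WT-C3, 398 to 511 CPM in C3, 201 to 239 CPM in WT-C22 and 317 to 442 CPM in C22, with Olig1 under 0.5 CPM in each library of all groups but C3, Gdnf in WT-C22 and Shh in C22. The part of these cell types in the changes of the guidance genes was not tested, and in bulk RNA fewer cells of a type and less RNA per cell cannot be told apart.

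Ntn5, a secreted netrin family member, had the largest rise among the netrins. It was at 6.41, 7.98, 4.69, 4.37 and 3.48 CPM in WT-C3 and at 15.7, 18.2, 17.3, 21.0 and 12.2 CPM in C3. In WT-C22 it was at 9.16, 5.52, 5.93, 5.47 and 6.31 CPM and in C22 at 45.8, 46.0, 40.4, 33.8 and 46.9 CPM. Each C3 library lay above each control library, and each C22 library above each C3 library. Its log2 fold change was 1.62 ± 0.22 in C3 (adjusted p = 0.000476) and 2.7 ± 0.15 in C22 (adjusted p = 1.74e-07), a difference of 1.07 ± 0.27 (adjusted p = 0.0119). Ntn5 overlaps Sec1 on the opposite strand, and the strand setting of the counting is not given in the sources used here.

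Ntng2, a lipid-anchored netrin-G, was at 14.1, 16.0, 14.1, 9.46 and 13.8 CPM in WT-C3 and at 25.7, 26.8, 26.2, 19.6 and 18.6 CPM in C3, and at 18.2, 16.2, 14.7, 13.5 and 16.2 CPM in WT-C22 and at 22.5, 27.7, 25.4, 23.4 and 32.3 CPM in C22. It was higher at each age in both models, with a log2 fold change of 0.81 ± 0.15 (adjusted p = 0.0031) and 0.73 ± 0.11 (adjusted p = 0.000369). Its relative Ntng1 went the other way in C22 (-0.75 ± 0.15, adjusted p = 0.0022), and had -0.57 ± 0.20 in C3 (adjusted p = 0.0589). Ntn1, the founding netrin and the most abundant, was at 217 ± 67.6 CPM in WT-C22 and 153 ± 14.6 CPM in C22 (log2 -0.51 ± 0.19, adjusted p = 0.0444), lower at 4 of the 5 ages. This call was lost without any 1 of 8 of the 10 libraries (adjusted p up to 0.0952). It was also lost with library size only (adjusted p = 0.167) and without the filter on low counts (adjusted p = 0.0526). Ntn3 and Ntn4 had no call in either model.

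Among the ephrins, Efnb3, a transmembrane ligand, fell in both models. It was at 48.9, 61.3, 75.2, 85.3 and 80.2 CPM in WT-C3 and at 34.9, 40.2, 42.7, 56.0 and 54.3 CPM in C3, and at 65.6, 77.2, 73.2, 73.2 and 103 CPM in WT-C22 and at 44.1, 44.8, 44.8, 39.8 and 46.2 CPM in C22. It was lower at each age in both models, and C3 overlapped WT-C3 because both were lowest at the young ages. The log2 fold change was -0.64 ± 0.17 in C3 (adjusted p = 0.0169) and -0.84 ± 0.11 in C22 (adjusted p = 0.00012). In C22 the ephrin-As split, with Efna1 lower (log2 -0.57 ± 0.14, adjusted p = 0.00789) and Efna2 (0.96 ± 0.20, adjusted p = 0.00262) and Efna4 (0.62 ± 0.19, adjusted p = 0.0194) higher. The Efna1 call was lost with library size only (adjusted p = 0.0527). Efnb1, the most abundant ephrin, had a log2 fold change of 0.17 ± 0.11 in C3 and 0.18 ± 0.10 in C22, without a call.

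The Eph receptors gave 4 calls in C3, all higher, and 3 higher and 4 lower in C22. Ephb6 was at 150, 149, 141, 168 and 156 CPM in WT-C3 and at 183, 224, 189, 268 and 179 CPM in C3, and at 156, 146, 143, 147 and 141 CPM in WT-C22 and at 255, 284, 260, 218 and 233 CPM in C22. The groups were separate in both models. The log2 fold change of Ephb6 was 0.44 ± 0.11 in C3 (adjusted p = 0.0116) and 0.76 ± 0.08 in C22 (adjusted p = 1.58e-05). Ephb6 overlaps Trpv6 on the opposite strand.

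Ephb1 (log2 0.64 ± 0.18 in C3, adjusted p = 0.0255, and 0.51 ± 0.17 in C22, adjusted p = 0.0312) and Ephb3 (0.45 ± 0.14, adjusted p = 0.0322, and 0.39 ± 0.13, adjusted p = 0.0258) rose in both models. Their calls depended on single libraries. Ephb1 lost its call in C3 when the 5-week or the 7-week WT-C3 library was dropped (adjusted p up to 0.0545) and in C22 without the C22 library of 5, 7 or 12 weeks or the WT-C22 library of 3 weeks (up to 0.0767). Ephb3 lost its call in C3 in 7 of 10 cases (up to 0.0771) and in C22 in 5 of 10 (up to 0.0715). Epha5 rose in C3 from 8.19 ± 1.76 to 15.6 ± 3.30 CPM (log2 0.92 ± 0.18, adjusted p = 0.00455) and had 0.54 ± 0.28 in C22 (adjusted p = 0.145), a difference that did not pass the test (-0.41 ± 0.36).

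Epha2, Epha4, Epha7 and Ephb4 fell in C22. The other tested A class receptors had no call there, with a log2 fold change of -0.42 for Epha1, -0.10 for Epha3, 0.54 for Epha5 and 0.41 for Epha6. Epha2 was at 24.9 ± 2.87 CPM in WT-C22 and 14.3 ± 1.97 CPM in C22 (log2 -0.81 ± 0.11, adjusted p = 0.000147) and at 37.5 ± 2.01 and 44.7 ± 6.63 CPM in WT-C3 and C3 (0.24 ± 0.10, adjusted p = 0.0894), and the difference of -1.07 ± 0.15 passed the test (adjusted p = 4.99e-05). Epha4, a receptor for both ephrin classes, fell from 15.0 ± 1.07 to 7.93 ± 0.478 CPM in C22 (log2 -0.92 ± 0.09, adjusted p = 9.38e-06) and had -0.46 ± 0.18 in C3 (adjusted p = 0.0765). Epha7 had a log2 fold change of -0.82 ± 0.16 in C22 (adjusted p = 0.00156) and 0.04 ± 0.26 in C3. Ephb4, a receptor of Efnb2, had -0.28 ± 0.09 in C22 (adjusted p = 0.028), a call lost without any 1 of 7 of the 10 libraries (adjusted p up to 0.072). The call of Ephb4 was also lost with library size only (adjusted p = 0.396) and without the filter on low counts (adjusted p = 0.0816).

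**Figure D3:**
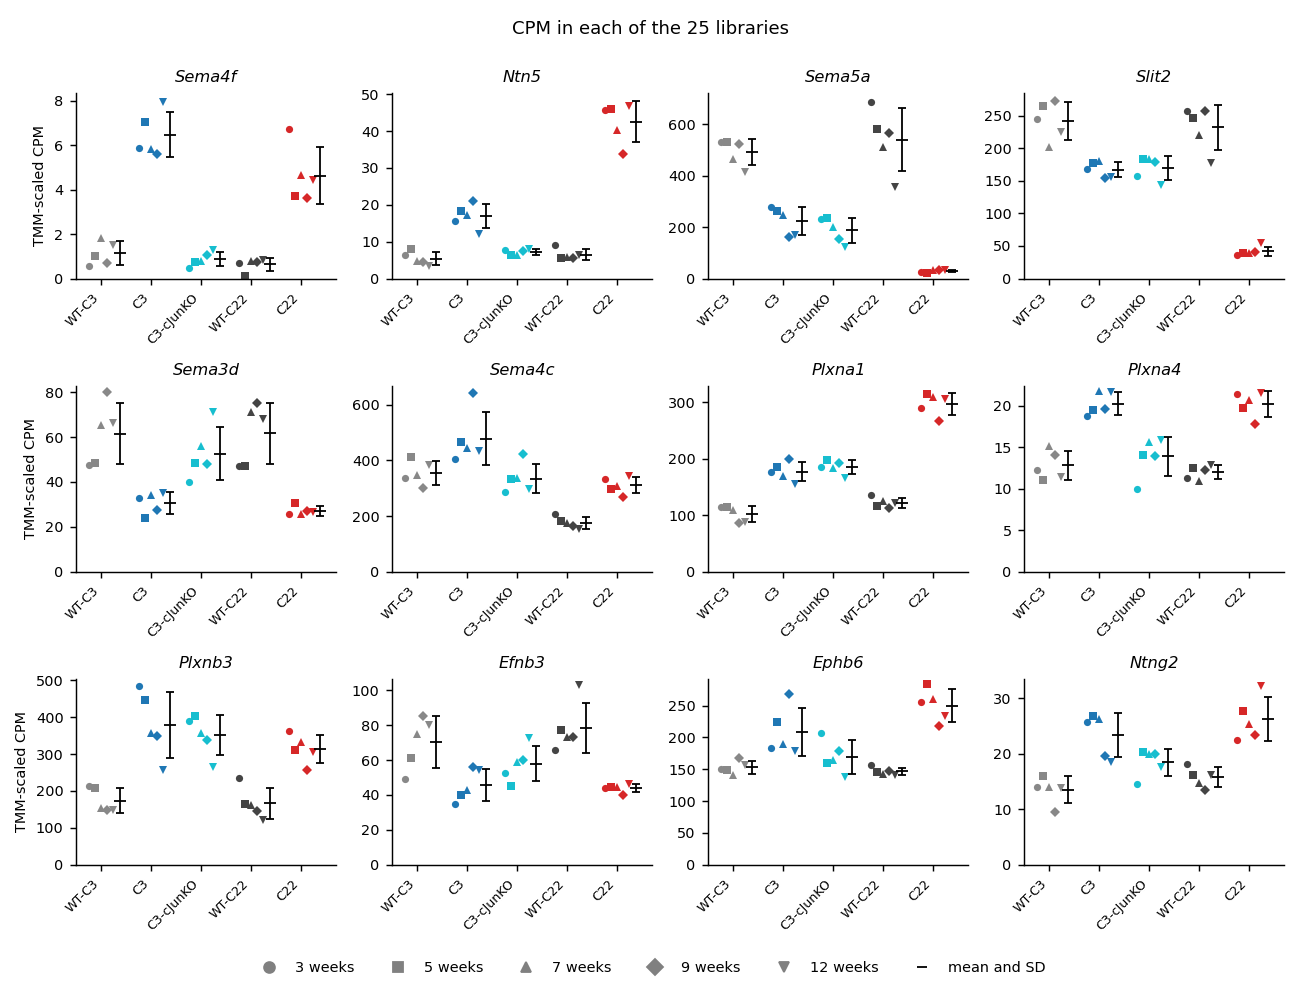
TMM-scaled CPM of 12 genes in each of the 25 libraries, by group, with a marker shape for each age and the mean with SD (n = 5) at the right of each group. Axes start at 0. Sema5a and Slit2 are lowest in C22, Ntn5 and Plxna1 are highest in C22, and Sema4f in C3-cJunKO lies at the level of the controls.

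Loss of c-Jun in Schwann cells of C3 nerves left 2 of the 59 genes past the threshold, both lower, where 0.222% of all genes were higher and 0.329% lower than in C3. Sema4f was at 0.477, 0.760, 0.804, 1.06 and 1.27 CPM in C3-cJunKO, below every C3 library, with a log2 fold change of -2.88 ± 0.23 (adjusted p = 0.000115). Here too Sema4f passed the filter on low counts only through C3 and C22, and without the filter the value was -2.87 (adjusted p = 3.76e-06). Its mean of 0.872 ± 0.301 CPM lay beside the 1.13 ± 0.541 CPM of WT-C3. Ntn5 was at 7.73, 6.39, 6.51, 7.43 and 8.06 CPM in C3-cJunKO, also below every C3 library (log2 -1.19 ± 0.14, adjusted p = 0.0015), with a mean of 7.22 ± 0.745 CPM against 5.38 ± 1.80 CPM in WT-C3. Both calls were kept in each of the 10 fits that left out 1 library, with adjusted p up to 0.00131 for Sema4f and 0.00844 for Ntn5. Both genes were called higher in C3 than in WT-C3, a comparison that shares the C3 libraries. The other 17 genes changed in C3 had no call here, with log2 fold changes from -0.78 ± 0.21 (Epha5, adjusted p = 0.215) to 0.78 ± 0.16 (Sema3d, adjusted p = 0.0753), among them Plxna4 (-0.54 ± 0.13), Sema4c (-0.51 ± 0.14), Ephb1 (0.55 ± 0.13), Plxna1 (0.07 ± 0.08), Slit2 (0.02 ± 0.09) and Sema5a (-0.25 ± 0.20). Of the repair and immature Schwann cell markers 2 of 7 fell, Ngfr and Jun, and Jun is the gene knocked out. The summed level of the list was 230 to 266 CPM in C3-cJunKO and 398 to 511 CPM in C3. That sum includes Jun, at a mean of 29.2 CPM in C3-cJunKO and 110 CPM in C3. The part of this list in the result was not tested.

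Libraries of the same age deviated together in this comparison, and with age as a paired block 9 genes were called (4 higher, 5 lower). The block also raised the calls over all 13993 genes, from 77 to 273, with 60.1% of the 273 higher. Whether the added calls are particular to the guidance genes was not tested. Besides Sema4f and Ntn5, the block gave lower Epha5 (log2 -0.78 ± 0.11, adjusted p = 0.00782), Plxna4 (-0.55 ± 0.10, adjusted p = 0.029) and Sema4c (-0.51 ± 0.07, adjusted p = 0.00606). It gave higher Sema3d (0.77 ± 0.12, adjusted p = 0.0122), Ephb1 (0.54 ± 0.10, adjusted p = 0.0226), Nrp1 (0.42 ± 0.08, adjusted p = 0.0339) and Epha6 (0.59 ± 0.12, adjusted p = 0.0432). Sema3d was at 39.9, 48.4, 56.1, 47.8 and 71.1 CPM in C3-cJunKO, above every C3 library. Without the block its adjusted p was 0.0753.

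c-Jun is a subunit of AP-1. The 250 bases before and 50 bases after the start of each gene's canonical transcript were therefore searched on both strands. The letters searched were TGANTCA, a loose form of the AP-1 motif in which N is any base. They were found for Sema3c (as TGATTCA) and Sema4c, in 2 of 62 members (3.23%) against 7.14% of 21770 promoters. The core motif of Egr factors, GCGTGGG, was in 6 members (9.68%, against 5.80%) and the TEAD motif GGAATG in 9 (14.5%, against 14.0%). The bases before the start are shown for both genes that fell without c-Jun and for Sema3c, on GRCm39, 5′ to 3′ in the direction of the gene, with the motif in capitals.
Sema4f (chr6:82916762-82917011, - strand): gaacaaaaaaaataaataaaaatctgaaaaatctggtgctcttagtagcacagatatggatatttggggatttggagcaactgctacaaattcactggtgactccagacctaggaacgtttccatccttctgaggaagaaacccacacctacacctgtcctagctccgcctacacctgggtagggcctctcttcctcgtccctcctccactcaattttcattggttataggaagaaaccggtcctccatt
Ntn5 (chr7:45333196-45333445, + strand): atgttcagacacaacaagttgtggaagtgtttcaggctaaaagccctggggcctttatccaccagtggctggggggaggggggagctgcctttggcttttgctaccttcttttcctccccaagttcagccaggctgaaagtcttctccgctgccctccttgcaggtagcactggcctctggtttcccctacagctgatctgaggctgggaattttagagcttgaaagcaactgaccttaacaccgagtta
Sema3c (chr5:17778969-17779218, + strand): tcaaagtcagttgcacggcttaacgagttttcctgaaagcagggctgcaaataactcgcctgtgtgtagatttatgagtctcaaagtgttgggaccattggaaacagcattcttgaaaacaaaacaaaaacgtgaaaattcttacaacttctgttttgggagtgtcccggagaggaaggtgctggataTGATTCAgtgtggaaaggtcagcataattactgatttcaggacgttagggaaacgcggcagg
The motif began 62 bases before the start of Sema3c. For Sema4c it began 181 bases before the canonical start, which lies inside the annotated gene, so that its window also covers exons of other Sema4c transcripts. Neither the Sema4f nor the Ntn5 window held any of the 3 motifs, which says only that these letters are absent there.

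The control strains themselves differed in 10 of the 59 genes (6 higher and 4 lower in WT-C22 than in WT-C3), where 9.99% of all genes were higher and 11.7% lower. Epha7 differed most, at 6.80 ± 1.96 CPM in WT-C3 and 2.29 ± 0.205 CPM in WT-C22 (log2 -1.56 ± 0.20, adjusted p = 0.000139). Sema4c (-1.02 ± 0.11, adjusted p = 3.5e-05), Epha2 (-0.59 ± 0.08, adjusted p = 0.000303) and Sema7a (-0.35 ± 0.09, adjusted p = 0.0166) were lower as well. Ephb1 was higher, at 19.8 ± 5.19 and 39.8 ± 6.40 CPM (log2 1.00 ± 0.18, adjusted p = 0.00213), as were Sema3b (0.41 ± 0.10, adjusted p = 0.0111), Plxnd1 (0.39 ± 0.10, adjusted p = 0.0132), Sema4b (0.37 ± 0.11, adjusted p = 0.0306), Plxnc1 (0.27 ± 0.09, adjusted p = 0.0431) and Nrp1 (0.57 ± 0.18, adjusted p = 0.0447). The calls of Nrp1, Plxnc1 and Sema4b were each lost in 7 of the 10 fits without 1 library (adjusted p up to 0.107, 0.109 and 0.0834) and with library size only, which left 3 higher and 4 lower. With age as a block 13 genes were called, beside 3721 over all genes in place of 3033. Plxnc1 lost its call under the block (adjusted p = 0.0738) and without the filter on low counts (adjusted p = 0.0634). Cell type markers differed too, with 3 of 5 adipocyte markers higher in WT-C22 (summed level 607 to 1998 CPM, and 445 to 964 CPM in WT-C3), 3 of 3 tested T and mast cell markers higher (38.4 to 134 and 19.2 to 48.6 CPM, with Cd3e under 0.5 CPM in each library of both), and 1 of 7 perineurial markers higher and 3 lower (1385 to 2143 and 1364 to 2110 CPM). Their part in the strain differences was not tested. Epha2, Sema3b and Sema7a differed between strains and also in the change between the models.

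Over the ages, 19 of 61 genes with enough counts changed in a fit shared by the 5 groups, 11 with a rising and 8 with a falling slope, where 9.65% of all genes rose and 7.26% fell. The netrins gave 3 calls, all rising, and the ephrins 3 rising and 1 falling. Ntn4, a netrin of basement membranes, had the steepest rise of the called genes, with a median over the 5 groups of 36.6 CPM at 3 weeks and 65.9 CPM at 12 weeks (slope 0.098 ± 0.012 log2 per week, adjusted p = 3.59e-05). Ntng1 rose from a median of 36.6 to 67.8 CPM (0.083 ± 0.011, adjusted p = 0.000116) and Sema4a from 11.2 to 19.3 CPM (0.084 ± 0.017, adjusted p = 0.00677). Ntn1 rose as well (0.079 ± 0.011, adjusted p = 0.000308). From 3 to 12 weeks Ntng1 went from 32.3 to 44.3 CPM in C22 and from 43.7 to 72.7 CPM in WT-C22, and from 38.9 to 52.3 CPM in C3 and from 36.6 to 89.7 CPM in WT-C3.

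Epha5 had the steepest fall of the called genes, from a median of 13.1 CPM at 3 weeks to 5.86 CPM at 12 weeks (-0.112 ± 0.011, adjusted p = 3.22e-06). Sema5b fell from 9.43 to 4.53 CPM (-0.098 ± 0.014, adjusted p = 0.000219) and Efna2 from 5.11 to 2.93 CPM (-0.078 ± 0.013, adjusted p = 0.000988). Epha5 and Efna2 were lower at 12 than at 3 weeks in each of the 5 groups. The number of age calls dropped to 6 without the libraries of 3 weeks and to 8 without those of 12 weeks (over all genes from 2586 to 480 and 999). Among these 6 genes the calls of Epha5 and Ntn4 were kept under both (adjusted p up to 0.00574 and 0.00377), while Efna2 lost it under both (0.0664 and 0.254), and Ntng1, Sema4a and Sema5b lost it under one (up to 0.0769, 0.231 and 0.062).

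The markers of other cells also moved with age. The median summed level of the perineurial markers was 1342 CPM at 3 weeks and 2010 CPM at 12 weeks, that of the adipocyte markers 445 and 1101 CPM, that of the fibroblast markers 10558 and 6533 CPM and that of the myelinating Schwann cell markers 68098 and 39853 CPM. Their part in the age slopes was not tested. Age was also tested within each group (5 libraries each), in 1 fit of the 25 libraries with a separate curve for each group. It called 2 genes in C3-cJunKO (3.38% of all genes), 1 in C3 (2.27%) and 2 in WT-C3 (0.693%). In WT-C22 it called 6 (2.86%) and in C22 0 (0.752%). Ntng1 rose in WT-C3, WT-C22 and C3-cJunKO, and Sema6d fell in C3, C3-cJunKO and WT-C22.

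**Figure D4:**
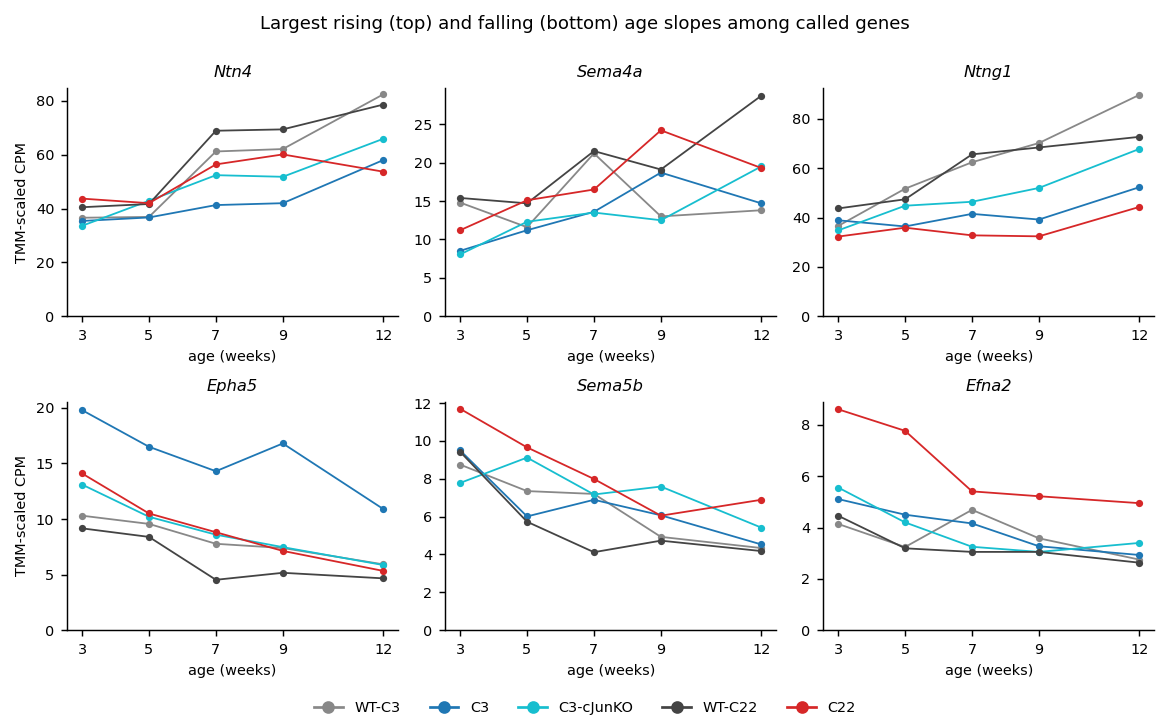
TMM-scaled CPM by age in weeks for the 3 called genes with the largest rising slope (top) and the 3 called genes with the largest falling slope (bottom), with 1 line per group and 1 library per point. Epha5 falls and Ntn4 ends higher at 12 than at 3 weeks in all 5 groups.

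Other genes of these pathways, listed apart from the members, changed in both directions too. Over all genes tested, 12.5% were higher and 11.4% lower in C3, and 21.9% were higher and 20.5% lower in C22. Of 24 tested further guidance receptors and ligands, 4 were higher and 2 lower in C3, and 6 higher and 9 lower in C22. Flrt2, an Unc5 ligand, fell in both (log2 -0.94 ± 0.16, adjusted p = 0.00209, and -1.0 ± 0.16, adjusted p = 0.00039). The netrin receptor Unc5a rose in C22 (2.91 ± 0.32, adjusted p = 3.24e-05), from a level that was far lower in WT-C22 than in WT-C3 (-4.67 ± 0.33, adjusted p = 1.22e-06). Of 50 tested cytoplasmic partners of guidance receptors, 14 were higher and 10 lower in C3, and 14 higher and 21 lower in C22. Fyn, a kinase used by plexin, netrin and ephrin signalling, rose in both (0.73 ± 0.08, adjusted p = 0.000189, and 1.51 ± 0.08, adjusted p = 1.57e-07), and Dpysl5, of the collapsin response mediator family, fell in both (-1.41 ± 0.13, adjusted p = 5.55e-05, and -1.49 ± 0.14, adjusted p = 8.52e-06).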

How the data were processed

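Polyadenylated RNA of whole sciatic nerve was sequenced in 25 libraries. The authors trimmed reads with cutadapt 2.10, aligned them with STAR 2.7.5a to GRCm39 with the human PMP22 locus added, removed duplicates with UMI-tools 1.1.1 and counted genes with HTSeq 0.12.4. Per the submitters' processing notes FastQC 0.11.9 was used for quality control. The authors deposited raw counts per gene for 56956 genes (15 of them human). The strand setting of the counting is not given in the sources used here. The 5 summary lines were left out of library sizes (no feature 8.12 to 12.11%, ambiguous 1.78 to 2.04%, not unique 2.76 to 3.93%). Symbols, coordinates, transcript lengths and promoters came from GENCODE on GRCm39 and were found for 56323 of 56941 mouse genes.

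Counts were TMM-scaled. The 13993 genes whose log2 CPM exceeded 1 in 7 or more libraries were tested with edgeR 4.0.16 in R 4.3.3 (quasi-likelihood test, group as the only term, Benjamini-Hochberg adjusted p under 0.05). Adjusted p-values run over all genes tested. Age was tested as a spline with 3 degrees of freedom beside group, on the 15298 genes kept by filterByExpr, with a linear slope for the direction. Each group holds 1 pooled library per age, so p-values measure the spread between ages of pools. Alternatives were other scalings, DESeq2 1.42.0, other filters, 1 fit over all libraries, an age block and leaving out each library. The scripts were tested on simulated counts. Library ages marked as replicate numbers pair libraries of C3-cJunKO and C3, whose deviations from the group means correlated at 0.143 to 0.614 in the 5 pairs. In every other comparison at least 1 pair was below 0.1. Between the control strains that pair was at 0.06 (12 weeks), and the other pairs were at 0.194 to 0.667, a range like that of C3-cJunKO and C3.

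Genes were named if called in a comparison of groups, if most abundant in their family per length, if among the 3 steepest age slopes in either direction of the genes called for age, or if near the mean CPM limit of 0.5. For 12 called genes, those called in both models or without c-Jun first and then by size of change, the value in every library is given. Other members (such as Plxnb1, Slit3, Ntn3 and Robo1) were named beside a relative or partner after their values were seen. Members and lists were chosen with earlier results of these data known.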

Additional observations from a re-analysis of the deposited data

Results flagged for a closer look

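In 5 of 60 groups of 5 libraries, 1 library lay apart from the others by Dixon's criterion (limit 0.71), which chance gives in about 1 of 20 groups. These were Sema4f at 0.106 CPM in WT-C22 at 5 weeks (1 count), Ntn5 at 9.16 CPM in WT-C22 at 3 weeks, Slit2 at 54.2 CPM in C22 at 12 weeks, Sema3d at 30.6 CPM in C22 at 5 weeks and Sema4c at 643 CPM in C3 at 9 weeks, the library with the lowest depth.

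The test of the difference in log2 fold change between C22 and C3 passed for 9 genes. The difference was -3.09 for Sema5a, -1.96 for Slit2, -1.07 for Epha2, -0.63 for Sema6c, -0.61 for Sema3b, -0.54 for Sema7a and -0.48 for Sema3f, and it was 1.07 for Ntn5 and 0.47 for Plxna1. Strain and copy number cannot be told apart in it.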

How the results depend on the processing

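No named call in a comparison of groups changed direction under any alternative run. The direction of the age calls was not compared between the alternatives. The number of guidance genes called in C3-cJunKO against C3 went from 2 to 8 with DESeq2, 4 without a filter on low counts, 6 with all 25 libraries in 1 fit and 9 with age as a paired block, each holding Sema4f and Ntn5. Over all genes the calls went from 77 to 250, 134, 139 and 273 in the same fits. The block gave 25 calls in C3, 39 in C22, 12 for the difference and 13 between strains. Over all genes it gave 3691, 6170, 2052 and 3721 calls, in place of 3345, 5939, 1687 and 3033. Age calls went from 19 to 29 with a linear age term, 6 without the libraries of 3 weeks and 8 without those of 12 weeks. Over all genes they went from 2586 to 4364, 480 and 999. Leaving out 1 library gave 16 to 21 calls in C3, 30 to 38 in C22, 8 to 13 for the difference, 2 to 3 in C3-cJunKO and 7 to 12 between strains. The calls over all genes were then 2245 to 3683, 5058 to 6027, 1312 to 1951, 43 to 98 and 2307 to 3022. Where a cause is not in the construction of the alternative, the cause was not tested. Low counts limit Sema4f most, with 1 to 34 counts per library in WT-C22, and the C3 library of 9 weeks has 2140142 counts. Without it C3 had 21 calls and the difference 13, beside 3625 and 1951 over all genes.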
